A study of Mus musculus with 45 samples.

Results

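The 10 genes described here act at the cell surface and in the feedback control of Wnt signalling. They are the co-receptor genes *Lrp5* and *Lrp6*, the Dickkopf genes *Dkk1*, *Dkk2* and *Dkk3*, the Kremen genes *Kremen1* and *Kremen2*, the ubiquitin ligase genes *Rnf43* and *Znrf3*, and the feedback gene *Axin2*. All 10 were found by identifier among the 54838 genes of the table, and 6 of them passed the filter on low counts. They were selected on the measured *Kremen1* level, which ran higher in lung-derived lines, so the difference between lung and fat-pad lines is given below as a description with no test.

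RNA-seq was run on 15 mouse mammary tumour cell lines that carry the *PyMT* oncogene, the polyomavirus middle T antigen, which the MMTV promoter drives in mammary cells. The 2 parental lines, YEJG and YEJH, are labelled as primary mammary tumour lines. The 6 fat-pad lines (YEJG-FP and YEJH-FP1 to YEJH-FP5) came from tumours that parental cells formed after transplantation into the mammary fat pad, and the 7 lung lines (YEJG-M1, YEJG-M2 and YEJH-M1 to YEJH-M5) came from micrometastases in the lung after the tumour was resected. The labels give lung metastases as the source of YEJH-M3 and whole lung as that of the other 6 lung lines. No treatment was given, the labels give no host age, and which lines came from one mouse is not stated in the sources used here. The study counts fewer mice than there are derived lines, so some lines may share a mouse. Treating such lines as independent makes p too small where they fall in the same group. Between lung and fat-pad lines, an ignored pair from 1 mouse can make p too large. YEJG gave 3 of the 13 derived lines and YEJH gave 10. Each line was sequenced in 3 technical repeats, so the line, not the library, was the unit of the main comparisons between lines. Only 1 parental line stands for each origin.

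Wnt ligands bind a Frizzled receptor together with LRP5 or LRP6, which halts the destruction of β-catenin and lets it act with TCF/LEF factors in the nucleus. Dickkopf 1 and 2 block the co-receptors, and the Kremen proteins are Dickkopf receptors that help to remove LRP6 from the surface; RNF43 and ZNRF3 mark Frizzled for degradation, and R-spondins acting through LGR receptors relieve that brake. AXIN2 is a scaffold of the destruction complex and a widely used transcriptional target of the pathway, and Wnt signalling is known for its role in the growth of the mammary gland and its tumours.

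The libraries held 9723860 to 16943900 reads on genes. Library names carry either of 2 prefixes, here called run A (22 libraries) and run B (23 libraries), and each line has libraries with both; what the prefixes stand for is not given in the labels. The 10 mammary epithelial markers had a summed level of 2843 to 7481 CPM (normalised counts scaled to a common library total), carried mostly by *Krt8* and *Krt18*, while 3 of them were under 1 CPM in every line: the basal keratin gene *Krt5* (35 reads in all libraries), the luminal factor gene *Elf5* (11 reads) and the milk gene *Csn2* (0 reads). Endothelial markers summed to at most 0.856 CPM and leukocyte markers to between 2.05 and 6.82 CPM. Of the 6 lung epithelial markers, *Sftpc*, *Sftpb* and *Sftpa1* had 0 reads, and the sum of 1.74 to 53.7 CPM came almost entirely from *Foxj1*. For YEJG-M1 repeat 1 the library name points to YEJH-M1, while the title and cell line labels, which were followed, give YEJG-M1. The 3 libraries placed as YEJG-M1 had 18.5 to 21.5 CPM of *Pdgfrb* and 59.3 to 62.6 CPM of *Cdh1*. Those of YEJH-M1 had at most 0.285 CPM and at least 335 CPM. YEJH-M3 repeat 2 stood apart for several of the 10 genes, as given below.

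The TCF/LEF-type motif and the sequence upstream of the start were examined for the feedback genes, because *Axin2* and *Rnf43* differ most between lines, and for *Dkk1*, because it was silent in all of them. RefSeq promoter windows on GRCm38.p6 were found for 5 of the 10 genes: *Axin2*, *Dkk1*, *Dkk2*, *Kremen2* and *Rnf43*, the last with 2 starts. The 250 bases before each start are printed 5′ to 3′ in gene orientation and in lower case, with a match to CTTTGAA or CTTTGAT, or on the other strand TTCAAAG or ATCAAAG, in capitals. The first 6 letters of the searched pair are the same. The windows are *Axin2* at chr11:108920099-108920348 on the plus strand, *Dkk1* at chr19:30549497-30549746 on the minus strand, and *Rnf43* at chr11:87662837-87663086 and chr11:87699647-87699896 on the plus strand.
*Axin2*: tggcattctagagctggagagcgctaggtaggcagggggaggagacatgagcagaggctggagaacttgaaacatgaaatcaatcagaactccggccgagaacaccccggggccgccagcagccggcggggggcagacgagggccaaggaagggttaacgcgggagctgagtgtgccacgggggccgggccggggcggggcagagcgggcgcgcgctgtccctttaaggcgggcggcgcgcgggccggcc
*Dkk1*: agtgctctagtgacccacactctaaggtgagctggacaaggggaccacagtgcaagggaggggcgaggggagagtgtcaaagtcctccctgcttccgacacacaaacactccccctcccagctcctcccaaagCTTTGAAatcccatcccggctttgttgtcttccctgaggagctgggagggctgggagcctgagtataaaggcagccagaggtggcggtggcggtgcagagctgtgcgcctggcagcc
*Rnf43*, first start: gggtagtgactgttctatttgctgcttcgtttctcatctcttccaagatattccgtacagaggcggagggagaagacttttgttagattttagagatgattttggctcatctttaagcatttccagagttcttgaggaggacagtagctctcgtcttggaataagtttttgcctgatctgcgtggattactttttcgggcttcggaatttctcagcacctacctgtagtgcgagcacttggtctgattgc
*Rnf43*, second start: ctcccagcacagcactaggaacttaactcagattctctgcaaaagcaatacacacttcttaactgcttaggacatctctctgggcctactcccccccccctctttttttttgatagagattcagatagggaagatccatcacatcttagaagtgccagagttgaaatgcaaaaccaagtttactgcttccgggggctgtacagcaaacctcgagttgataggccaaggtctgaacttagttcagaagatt
Of the 6 windows found, the 1 of *Dkk1* held a match, a single CTTTGAA that starts 117 bases before the gene's start. Among all 32851 windows of the same length, 7.48% held a match. A match of letters is not a binding site, and no match says only that these letters are not in the window.

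The Dickkopf genes and *Kremen2* were close to silent, unlike *Kremen1*. *Dkk1* had 0 reads in all 45 libraries, which allows a level of up to 0.00473 CPM, the value of 3 reads over all libraries. *Dkk3*, a divergent Dickkopf that is not known to act on LRP6, had 3 reads in 3 libraries, a count with an exact 95% Poisson interval of 0.619 to 8.77. *Kremen2* had 2 reads, both in 1 library of a YEJH lung line (interval 0.242 to 7.22).
*Dkk2* had 11 reads in 10 libraries with at most 2 in any of them (interval 5.49 to 19.7). All of these libraries were of YEJH origin, and 7 of the 10 were from the lung lines YEJH-M1, YEJH-M2, YEJH-M3 and YEJH-M5. At 1 or 2 reads a library, a difference between lines was not detectable at this depth. Intervals and limits cover counting error only. These 4 genes did not pass the filter, and of the 21544 protein-coding genes in the table, 22% also had 0 reads and 35.3% had 11 or fewer.

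The other 6 genes had reads in every library. Per kilobase of annotated exon and averaged over the 15 lines, *Lrp5* was highest at 16.2 CPM per kb, followed by *Lrp6* at 6.33, *Znrf3* at 3.61 and *Kremen1* at 1.75. *Axin2* at 0.929 CPM per kb and *Rnf43* at 0.389 were the lowest. The lines differed little in the co-receptors and in *Znrf3* and *Kremen1*, with a ratio of highest to lowest line of 1.48 for *Lrp5*, 1.35 for *Lrp6*, 1.69 for *Znrf3* and 1.48 for *Kremen1*. The ratio was 8.37 for *Axin2* and 14.8 for *Rnf43*. In bulk RNA, fewer cells that express a gene and less RNA per cell cannot be told apart.

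*Kremen1* (ENSMUSG00000020393, chr11:5141548-5211727 on GRCm39, minus strand) is the gene that led to the choice of the group. Its level was 19.01, 19.02, 19.97, 19.2, 19.1 and 19.1 CPM in YEJG-FP and YEJH-FP1 to YEJH-FP5. It was 18.8 and 26.3 CPM in YEJG-M1 and YEJG-M2, and 24.8, 27.1, 27.9, 26.1 and 25.8 CPM in YEJH-M1 to YEJH-M5. The parental lines had 21.1 CPM (YEJG) and 19.3 CPM (YEJH). The fat-pad lines therefore lay within about 1 CPM of each other, and 6 of the 7 lung lines lay above every one of them and above both parental lines. The exception was YEJG-M1, the lowest of the 15 lines, whose 3 libraries had 17.9, 20.7 and 17.9 CPM.

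The mean was 25.3 CPM over the lung lines and 19.2 CPM over the fat-pad lines, a difference of 6.03 CPM and a ratio of 1.31. Among YEJH lines alone the means were 26.3 and 19.3 CPM (ratio 1.37), and all 5 lung lines lay above all 5 fat-pad lines. The YEJG-derived lines gave a smaller ratio of 1.188 and did not separate by site. Of their lung lines, YEJG-M2 lay above the sole fat-pad line, YEJG-FP, and YEJG-M1 lay below it. Since the gene was chosen for this contrast, no p is given and nothing is read from its place in the background: 0.724% of 15056 genes had 6 or more of the 7 lung lines above every fat-pad line, and 0.817% had all YEJH lung lines above all YEJH fat-pad lines. Within each run the ratio was about the same, 1.32 in run A and 1.30 in run B. By library, the fat-pad lines spanned 17.3 to 22.7 CPM and the lung lines without YEJG-M1 spanned 22.4 to 30.2 CPM, with 209 to 466 *Kremen1* reads in a library of a lung line.

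Ordered by mean level, the 6 lung lines other than YEJG-M1 came first. YEJH-M3, YEJH-M2, YEJG-M2, YEJH-M4, YEJH-M5 and YEJH-M1 stood at the top, each overlapping the next in its 3 libraries. The libraries of YEJH-M1 and those of the next line by mean, parental YEJG, did not overlap, but the highest library of YEJH-FP2 (22.7 CPM) lay just above the lowest of YEJH-M1 (22.4 CPM). From parental YEJG down, every line overlapped its neighbour, so no order among the fat-pad lines, the parental lines and YEJG-M1 can be read.

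**Figure D1:**
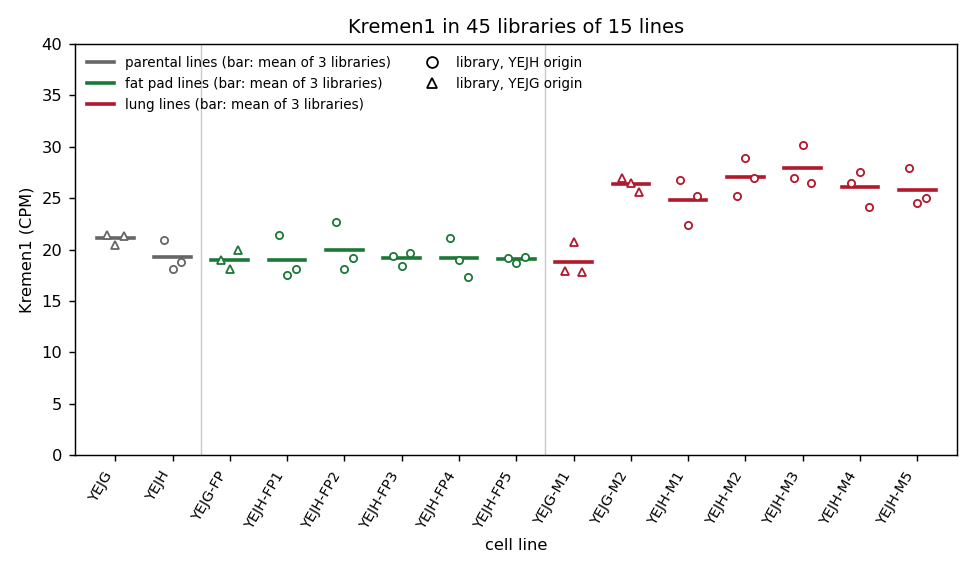
*Kremen1* level (CPM, vertical axis from 0) in each of the 15 lines; symbols are single libraries, bars are the mean of 3 libraries, and colours mark the site. The fat-pad lines have means of 19.01 to 19.97 CPM, and the lung lines except YEJG-M1 (18.8 CPM) have means of 24.8 to 27.9 CPM.

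The genes with the profile most like that of *Kremen1* were found by the Pearson correlation of log2 CPM over the 15 lines among 16360 genes. They were *Wdr36*, with a role in ribosome biogenesis (r = 0.815), *Card10*, a signalling scaffold (0.754), *Plscr2*, of the phospholipid scramblase family (0.751), *Csf1r*, the receptor for colony stimulating factor 1 (0.725), and the tetraspanin gene *Tspan1* (0.701). Over the 10 YEJH-derived lines the same genes had r = 0.794, 0.784, 0.745, 0.782 and 0.596. *Csf1r* is also among the 8 leukocyte markers listed, which summed to 2.05 to 3.76 CPM in the fat-pad lines and 3.13 to 6.82 CPM in the lung lines, with *Cd3e* at 0 reads and 6 of the 8 under 1 CPM in every line. The 8 fibroblast markers summed to 4.08 to 11.9 CPM in the fat-pad lines and 2.63 to 88.4 CPM in the lung lines. *Csf1r* was 2.13-fold higher in lung lines, but it was picked by correlation with *Kremen1*, so this is no separate result. With no origin term in the fit, *Pdgfra* and *Col1a1* were 2.67-fold and 3.50-fold higher in lung lines. Both had an unadjusted p under 0.05 and an adjusted p of 0.909 in edgeR. In YEJG-M1 and YEJG-M2, *Pdgfra* had 42.1 and 8.99 CPM and *Col1a1* 3.96 and 1.12 CPM. The YEJH lung lines had 2.12 to 4.35 CPM and 0.106 to 0.404 CPM. The fat-pad lines had 3.07 to 3.99 CPM and 0.151 to 0.396 CPM. The part of these markers in the *Kremen1* difference was not tested. The 5 correlations are the highest of many values, the lines share their origins and runs, and no p is given. In YEJG-M1, where *Kremen1* was low, *Wdr36* had 273 CPM against a range of 262 to 291 CPM in the fat-pad lines, and *Csf1r* had 0.961 CPM against 0.367 to 1.83 CPM. Among the other chosen genes, r with *Kremen1* over the 15 lines ran from -0.27 for *Lrp5* to 0.288 for *Znrf3*, and over the 10 YEJH-derived lines from -0.66 for *Lrp5* to 0.3 for *Znrf3*.

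No other chosen gene separated the sites in this way. *Znrf3*, the ligase gene next to *Kremen1* with 14596 bases between them on chromosome 11 of GRCm39, had a mean of 29.2 CPM in lung lines and 28.9 CPM in fat-pad lines. *Lrp5* had 155 and 161 CPM, and *Lrp6* 97.6 and 98.5 CPM. These ratios were near 1 (0.962 for *Lrp5*, 0.99 for *Lrp6* and 1.01 for *Znrf3*), and for *Lrp5* 3 of the 5 YEJH lung lines lay below every YEJH fat-pad line. *Rnf43* (3.05 against 2.71 CPM) and *Axin2* (5.54 against 7.41 CPM) varied within both sites by more than their means differed.

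For the other genes of the pathway, which the choice did not use, the site could be tested. Of 90 pathway genes listed, 56 were tested between lung and fat-pad lines. In edgeR's quasi-likelihood test 0 passed an adjusted p of 0.05, with 6 at an unadjusted p under 0.05. That fit had no origin term, so differences between YEJG and YEJH lines stayed in its spread and can hide a site difference. Over all 15056 genes 0 were called (0% of those tested), with 784 at an unadjusted p under 0.05, while DESeq2 called 21. With libraries kept apart in limma, 77 genes were called. The 1 pathway gene among these was *Lgr4*, an R-spondin receptor, lower in lung lines at a log2 fold change of -0.31, adjusted p = 0.0258 in limma; it is named after its values were seen, and its adjusted p in edgeR was 0.909.

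The second question was whether the 10 genes differ by the parental line of origin, a contrast that the choice did not use. Among the 13 derived lines, with site as a covariate, 4 of the 6 tested genes were called, all lower in YEJG-derived lines: *Axin2*, *Rnf43*, *Lrp6* and *Lrp5*. The background was high, since 40.8% of the 15815 tested genes were called, and 21.6% of the tested genes were called as lower. For none of the 6 genes did the YEJG-derived lines lie entirely below the YEJH-derived lines, which 12.8% of all tested genes did, nor for any of the 6 did they lie entirely above them (11.4%).

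*Axin2*, the feedback target (chr11:108811169-108841609 on GRCm39, plus strand), had 4.85 CPM in YEJG-FP, 1.40 in YEJG-M1 and 1.89 in YEJG-M2. In the YEJH-derived lines it had 8.32, 7.14, 8.48, 8.05 and 7.63 CPM in the 5 fat-pad lines and 5.39, 8.95, 8.33, 9.04 and 3.81 CPM in the 5 lung lines. YEJH-M5, at 3.81 CPM, was the only YEJH line below YEJG-FP, and both YEJG lung lines lay below every other derived line. The fit gave a 2.86-fold lower level in YEJG-derived lines (log2 fold change -1.52, SE 0.315, adjusted p = 0.00205, edgeR quasi-likelihood). The call held under all 28 alternatives, between -2.13 and -1.22. The parental lines, which were not in that fit, lay the same way round, with 1.52 CPM in YEJG and 11.7 CPM in YEJH.
By order of level, the libraries of YEJH-M5 did not overlap those of YEJG-FP above or YEJG-M2 below, and YEJG-M2, parental YEJG and YEJG-M1 overlapped at the bottom.

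*Rnf43*, a ligase that lowers Frizzled at the surface (chr11:87553548-87626377 on GRCm39, plus strand), had 0.470 CPM in YEJG-FP, 2.17 in YEJG-M1 and 1.29 in YEJG-M2. The YEJH-derived fat-pad lines had 3.35, 2.93, 2.75, 3.01 and 3.74 CPM, and the lung lines 3.73, 2.27, 5.55, 4.74 and 1.56 CPM. YEJH-M5 was again the lowest YEJH-derived line and was the only one to lie below a YEJG-derived line. The level was 2.83-fold lower in YEJG-derived lines (log2 fold change -1.50, SE 0.417, adjusted p = 0.0115, edgeR quasi-likelihood). YEJG-FP decided this call, because without it the change was -1.04 with an adjusted p of 0.0604. The parental lines, which were not in the fit, hardly differed, with 0.376 CPM in YEJG and 0.393 CPM in YEJH.

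The co-receptors differed far less. *Lrp5* (chr19:3634821-3736643 on GRCm39, minus strand) had 124, 160 and 136 CPM in YEJG-FP, YEJG-M1 and YEJG-M2, and 144 to 175 CPM (median 167) in the YEJH-derived lines. *Lrp6* (chr6:134423439-134544212, minus strand) had 96.4, 88.3 and 86.5 CPM, against 96.3 to 117 CPM (median 97.9). The log2 fold changes were -0.23 (SE 0.0805, adjusted p = 0.0385) and -0.16 (SE 0.0497, adjusted p = 0.0188) in edgeR. Each call was lost in 12 of 28 alternatives, with adjusted p up to 0.333 for *Lrp5*, which was reached without YEJG-FP (log2 fold change -0.09), and up to 0.157 for *Lrp6*, reached in run A alone (-0.08).
The top of the *Lrp6* range, YEJH-M3, rested on 1 library: repeat 2 had 160 CPM and the other repeats had 92.7 and 98.3 CPM, so that the line's mean was 117 CPM with it and 95.5 CPM without it. Without that library *Lrp6* kept its call (-0.11, adjusted p = 0.0169) and *Lrp5* lost it (-0.19, adjusted p = 0.0612).

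*Kremen1* and *Znrf3* did not pass the test of origin. *Kremen1* gave a log2 fold change of -0.16 (SE 0.0788, adjusted p = 0.132), and passed when YEJG-M2 was left out (-0.25, adjusted p = 0.0445), which left the low YEJG-M1 as the sole YEJG lung line. *Znrf3* (chr11:5226324-5394939, minus strand) had 29.0, 23.9 and 26.3 CPM in the YEJG-derived lines and 26.4 to 40.4 CPM in the YEJH-derived lines (-0.19, SE 0.0966, adjusted p = 0.137). Its highest value also came from YEJH-M3 repeat 2, with 61.1 CPM against 28.2 and 31.9 CPM in the other repeats, and the mean of that line was 30.1 CPM without it.

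**Figure D2:**
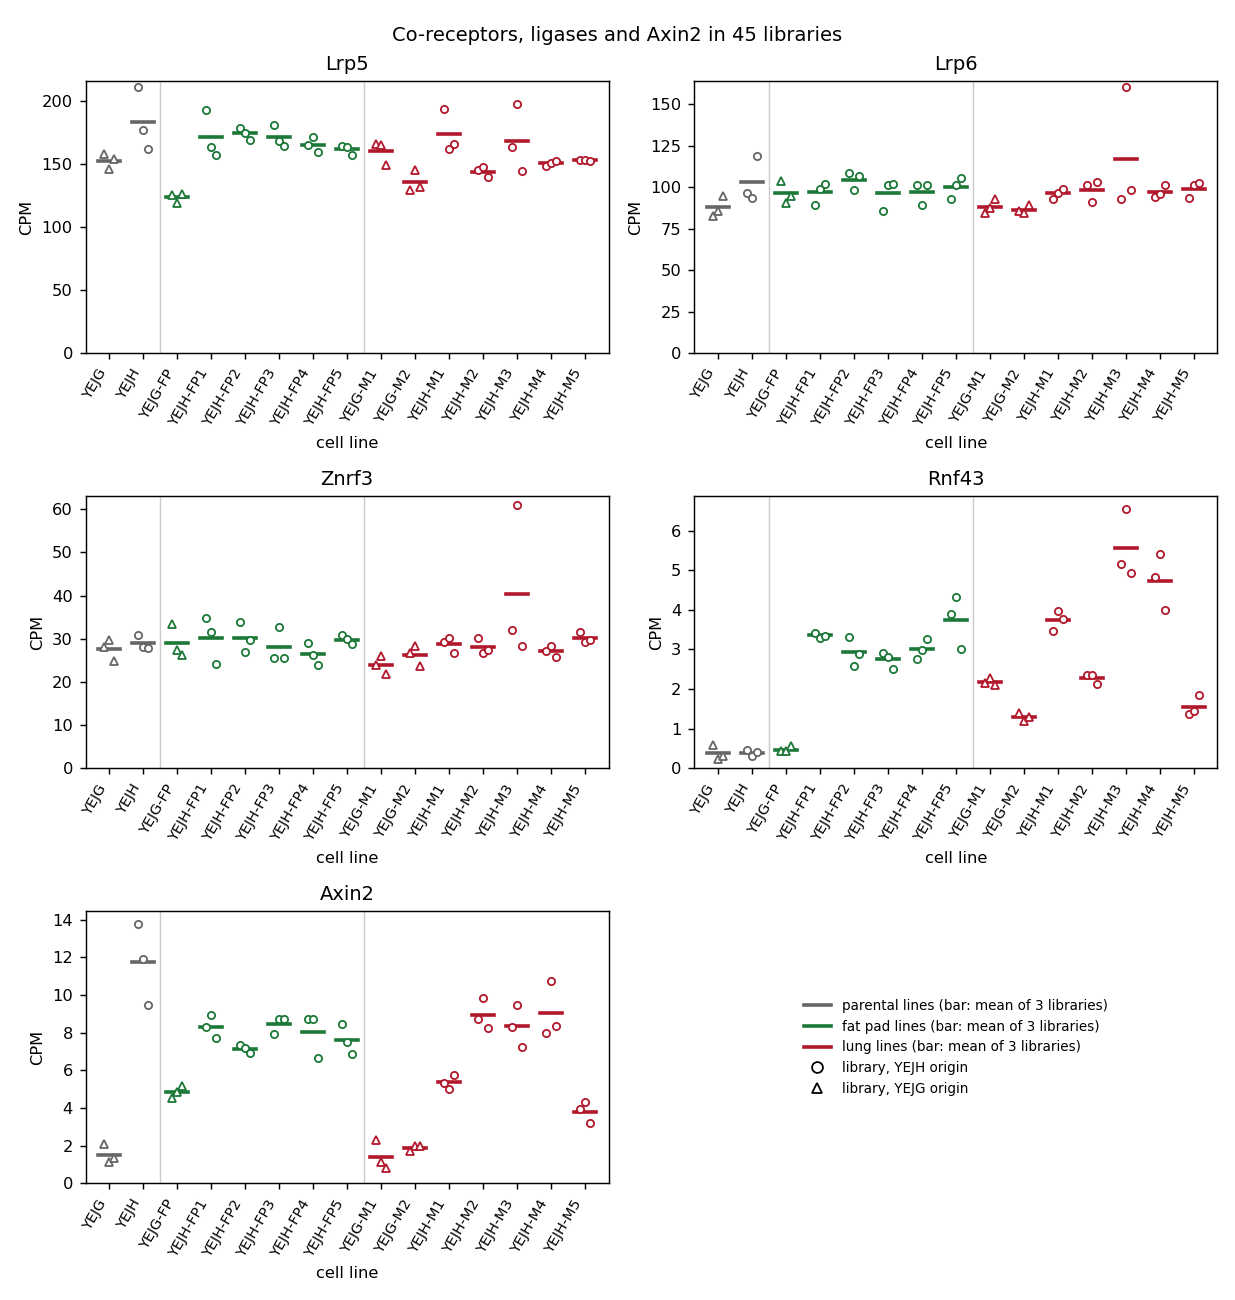
Level (CPM, vertical axes from 0) of *Lrp5*, *Lrp6*, *Znrf3*, *Rnf43* and *Axin2* in 15 lines, with single libraries as symbols (circles YEJH, triangles YEJG) and the mean of 3 libraries as a bar. *Rnf43* is lowest in both parental lines and YEJG-FP (0.376, 0.393 and 0.470 CPM), *Axin2* is lowest in YEJG-M1, parental YEJG and YEJG-M2, and 1 library of YEJH-M3 stands above the rest for *Lrp6* and *Znrf3*.

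Marker levels also moved with origin among the derived lines. The 8 fibroblast markers summed to 11.9 to 88.4 CPM in the YEJG-derived lines and to 2.63 to 6.24 CPM in the YEJH-derived lines, with *Lum* and *Thy1* at 0 reads in every library. *Pdgfrb* reached 73.0 CPM in YEJG-M2 and *Pdgfra* 42.1 CPM in YEJG-M1. The mammary epithelial markers summed to 2843 to 4578 CPM in the YEJG-derived lines and 5847 to 7408 CPM in the YEJH-derived lines. *Cdh1* was at 257, 61.1 and 104 CPM in YEJG-FP, YEJG-M1 and YEJG-M2 against 343 to 461 CPM in the YEJH-derived lines. The part of these markers in the differences of *Axin2*, *Rnf43* and the co-receptors was not tested. In the parental lines the fibroblast sum was 1.98 to 3.11 CPM and the epithelial sum 6369 to 7481 CPM. There *Cdh1* was at 328 CPM (YEJG) and 420 CPM (YEJH), so the low epithelial level was seen in the derived YEJG lines only.

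The other pathway genes were tested for origin in the same fit. Of the 59 listed genes tested, 8 were higher and 24 lower in YEJG-derived lines, where 19.2% of all tested genes were higher and 21.6% lower, with a median log2 fold change of -0.25 against 0.00315 over all genes. Among the Wnt ligands 2 rose and 4 fell of 8 tested, among the Frizzled and related receptors 1 rose and 6 fell of 13, and among the intracellular components 2 rose and 9 fell of 24. All 3 tested R-spondin and LGR genes were called (1 higher, 2 lower), as were 5 of 8 TCF/LEF factors and targets (2 higher, 3 lower). Of the other secreted inhibitors (the SFRP family, *Wif1*, *Notum* and the like) only 3 of 12 were expressed enough to test, and 0 were called, with 1 at an unadjusted p under 0.05.

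The R-spondin gene *Rspo3*, a ligand of the LGR receptors that spares Frizzled from RNF43 and ZNRF3, had 0.748, 2.59 and 9.90 CPM in YEJG-FP, YEJG-M1 and YEJG-M2, and at most 0.122 CPM in the YEJH-derived lines (log2 fold change 6.51, SE 0.581, adjusted p = 8.16e-06, edgeR). Parental YEJG was at 0 CPM. The size of that change depends on the prior count, since the YEJH-derived lines are close to 0. *Wnt5a*, mostly a ligand of β-catenin-independent signalling, reached 17.2 CPM in YEJG-M1 but only 0.119 CPM in YEJG-FP, against at most 0.356 CPM in YEJH-derived lines (5.16, adjusted p = 0.000288). The ligand gene *Wnt4* (2.32, adjusted p = 0.00137) and *Id2*, listed among the pathway targets (2.11, adjusted p = 2.03e-05), were the next largest rises.

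The largest falls were of the feedback inhibitor *Nkd2* (log2 fold change -3.28, SE 0.612, adjusted p = 0.00101), the receptor gene *Fzd3* (-2.41, adjusted p = 0.0357), the R-spondin receptor gene *Lgr6* (-2.25, adjusted p = 0.000177) and the ligand gene *Wnt5b* (-1.97, adjusted p = 0.00593), all in edgeR. *Nkd2* had 8.24, 0.731 and 0.198 CPM in YEJG-FP, YEJG-M1 and YEJG-M2, and 9.64 to 33.9 CPM in the YEJH-derived lines. The parental lines did not show that order, since *Nkd2* had 93.0 CPM in parental YEJG and 70.4 CPM in parental YEJH. Nor did they for *Lgr6*, with 107 CPM in parental YEJG and 89.3 CPM in parental YEJH. *Lgr6* had 11.9 to 40.1 CPM in the YEJG-derived and 66.8 to 145 CPM in the YEJH-derived lines. The call of *Fzd3* was lost in 4 of 28 alternatives.

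**Figure D3:**
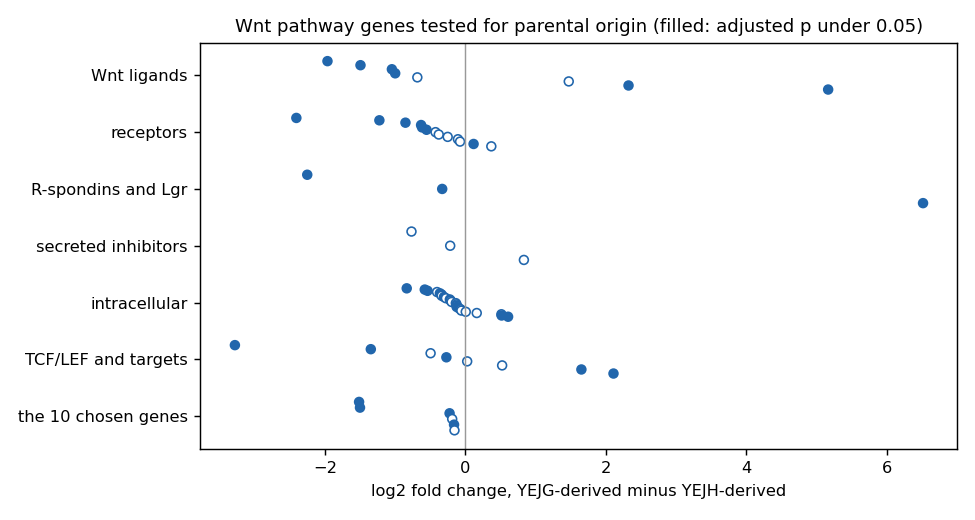
Log2 fold change (horizontal axis, YEJG-derived minus YEJH-derived lines) of the tested genes of each pathway list and of the chosen genes, 1 point per gene, filled where the adjusted p was under 0.05. Of 59 pathway genes 24 are called to the left of 0 and 8 to the right, and *Rspo3* lies farthest right at 6.51.

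The third question was whether lines that had grown in a mouse differ from the parental lines. With origin as a covariate, 1 of the 6 tested genes was called, *Rnf43*, against a background of 7.77% of 16361 genes (3.55% higher in derived lines). *Rnf43* had 0.376 CPM in parental YEJG and 0.393 CPM in parental YEJH, and 0.470 to 5.55 CPM in the 13 derived lines. Every derived line thus lay above both parental lines, as for 4.55% of tested genes, but YEJG-FP only just, and its libraries overlapped those of both parental lines. The level was 5.62-fold higher in derived lines (log2 fold change 2.49, SE 0.605, adjusted p = 0.0236, edgeR quasi-likelihood).
That call rests on 2 parental lines with 3 to 7 *Rnf43* reads in each library. Without parental YEJG the change was 3.08 (adjusted p = 0.106), and without parental YEJH it was 1.80 (adjusted p = 0.175). It was 2.71 with an adjusted p of 0.0738 for lung against parental lines, and 1.81 with an adjusted p of 0.59 among YEJG lines alone.

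The remaining genes gave no call between derived and parental lines. Log2 fold changes were -0.15 for *Lrp5* (adjusted p = 0.337), -0.02 for *Lrp6* (0.849), 0.13 for *Kremen1* (0.716), -0.01 for *Znrf3* (0.979) and -0.12 for *Axin2* (0.906). The signs for *Lrp6*, *Znrf3*, *Axin2* and *Kremen1* changed in some alternatives, with scaling by library totals among them for *Lrp6* and *Znrf3*. For *Kremen1*, the derived lines include the lung lines whose high level led to the choice. Its change and p here are therefore not independent of that choice. Fat-pad lines alone gave -0.07 for *Kremen1* against the parental lines (adjusted p = 0.549). For *Axin2* the parental lines were far apart, at 1.52 and 11.7 CPM, and 12 of the 13 derived lines lay between them, with YEJG-M1 (1.40 CPM) below both.

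Of the 59 other pathway genes tested, 5 were lower in derived lines, against 4.23% of all tested genes, and 0 were higher. *Fzd3*, a Frizzled receptor gene, had 20.6 and 23.02 CPM in the parental lines and at most 5.02 CPM in any derived line (log2 fold change -4.60, SE 0.714, adjusted p = 0.00268). *Nkd2* had 70.4 and 93.0 CPM in the parental lines and at most 33.9 CPM in a derived line (-3.58, SE 0.847, adjusted p = 0.0207). For both genes all 13 derived lines lay below both parental lines, as for 3.53% of tested genes. *Fzd1* (-0.69, adjusted p = 0.00741), the cyclin D1 gene *Ccnd1* (-0.34, adjusted p = 0.0259) and *Gsk3a*, a kinase of the destruction complex (-0.28, adjusted p = 0.0102), changed less in edgeR. *Gsk3a* is named after its values were seen. Without parental YEJG, 1 pathway gene was called, and among YEJG lines alone 0 were, with *Fzd3* at -5.60 and an adjusted p of 0.422.

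**Figure D4:**
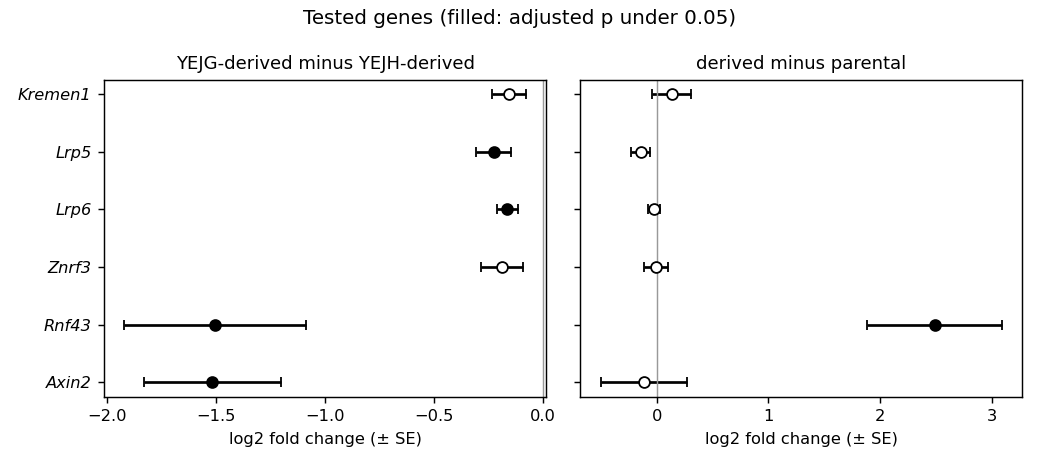
Log2 fold change with its SE (horizontal axes, which differ in range) of the 6 tested genes, for YEJG-derived minus YEJH-derived lines (left) and derived minus parental lines (right), filled where the adjusted p was under 0.05. *Axin2* and *Rnf43* lie near -1.5 on the left, and *Rnf43* at 2.49 is the sole filled point on the right.

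Both library name prefixes covered all 15 lines, so that the difference between them could be measured for each gene. Between runs, 0 of the 6 genes were called by edgeR, against 15.9% of 14339 genes, with *Lrp6* (log2 fold change 0.10, adjusted p = 0.109) and *Znrf3* (0.14, adjusted p = 0.146) at an unadjusted p under 0.05. The differences of *Axin2* and *Rnf43* by origin were -1.52 and -1.50.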

How the data were processed

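The authors deposited 1 table of raw read counts per gene (Ensembl mouse identifiers) for 45 libraries. RNA was poly(A)-selected and libraries were made with an Illumina TruSeq RNA kit, which does not mark strand, so reads of a gene and an overlapping antisense gene cannot be told apart. The submitters' processing notes name FastQC, HISAT2, SAMtools 1.2, HTSeq and the build GRCh38, although the identifiers are of mouse. Of the identifiers, 50764 (92.6%) matched the GRCm39 annotation used for names and positions. All columns were matched to a library. The 5 HTSeq totals (31.6 to 43.3% of reads) were left out. No libraries were identical.

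The counts were summed over the 3 technical repeats of a line, normalised by TMM and tested with edgeR 4.0.16 (R 4.3.3) quasi-likelihood fits after filterByExpr, with Benjamini-Hochberg adjustment over all tested genes and a threshold of 0.05. CPM are TMM-scaled and averaged over a line's libraries. SE is the size of the log2 fold change divided by the square root of F. The p-values of these fits measure the spread between lines. The comparison of runs was fitted on single libraries with the line as a covariate, so its p-values measure the spread between libraries of a line. Alternatives used DESeq2 1.42.0, limma 3.58.1, other scaling and filters, single runs and omitted lines or libraries. The test was checked on simulated counts with known changes, but no minimum recovery was required for the derived against parental comparison. Promoters came from a RefSeq table.

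The 10 genes and the gene lists were chosen with earlier results of these data known. The genes named are the 10, for each tested comparison the 4 called pathway genes with the largest change in each direction, and the 5 genes most correlated with *Kremen1*.

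Same-numbered technical repeats did not deviate together (mean r = 0.00454, against -0.00407 for different numbers), nor did same-numbered YEJH lines (mean r = -0.04), while libraries of 1 run did (0.497).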

Additional observations from a re-analysis of the deposited data

Results flagged for a closer look

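A line far from the others of its site was looked for in 12 groups, the 6 tested genes in the fat-pad and in the lung lines. Chance would give 0.6 among independent groups, but these share lines and libraries, and *Kremen1* was chosen on its levels by site. Such a line was found in 7 groups, a count that is therefore not read against chance. In 3 of them the line was YEJG-FP, the sole YEJG line of the fat pad, with *Lrp5* at 124 CPM (nearest line 162), *Rnf43* at 0.47 CPM (nearest 2.75) and *Axin2* at 4.85 CPM (nearest 7.14). In 2 of them it was YEJH-M3, with *Lrp6* at 117 CPM (nearest 99.0) and *Znrf3* at 40.4 CPM (nearest 30.1), both of which rest on repeat 2 of that line. For *Kremen1* the lung line YEJG-M1 was low at 18.8 CPM (nearest 24.8), and the fat-pad line YEJH-FP2 was high at 20 CPM (nearest 19.2), a gap smaller than the spread of that line's own libraries.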

How the results depend on the processing

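The lung to fat-pad difference of *Kremen1* stayed between 0.344 and 0.454 on the log2 scale in 22 alternatives. Because *Kremen1* was chosen for this difference, the range is a description and lends it no support. In YEJG lines alone the difference was 0.249, below that range. For origin, the count of all called genes stayed between 4901 and 7208 (4901 to 7208 with 1 line or repeat left out), and the count of the 6 chosen genes called was 2 with scaling by library totals, in run A alone and in run B alone, and 2 to 4 with 1 line or repeat left out. Scaling by library totals moved the share of higher calls from 47% to 57.3% for origin and from 45.6% to 59.3% for derived against parental lines.

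The derived against parental comparison depended most on the lines. Its 1272 calls became 2027 with DESeq2, 2479 in limma on separate libraries, 2497 with the run added as a covariate, 685 in run B, 566 in YEJH lines, 0 in YEJG lines, 1948 with fat-pad and 163 with lung lines alone (the last 3 were chosen after seeing the data, as was leaving out YEJH-M3 repeat 2). With 1 line or repeat left out they ran from 141 (without parental YEJG) to 2281 (without parental YEJH), with 2149 without YEJG-FP and 627 without repeat 1. The 5 pathway calls became 17 in each limma fit, 3 in run B, 0 in YEJG lines, 11 with fat-pad and 1 with lung lines, and 1 to 14 with 1 line or repeat left out. The call of *Rnf43*, the 1 chosen gene, was lost (0) in YEJG lines and with lung lines alone, and 0 to 1 remained with 1 line left out. Uncalled changes turned sign for *Lrp6* (0.0154 with library totals, 0.0082 in run A, 0.00939 in run B, 0.0339 in YEJG lines, -0.0731 to 0.0666 with 1 left out), *Znrf3* (0.0331 with library totals, 0.0365 in run B, 0.0421 in YEJH lines, 0.0214 with fat-pad lines, -0.07 to 0.0464), *Kremen1* (-0.066 with fat-pad lines) and *Axin2* (0.82 in YEJG lines, 0.0743 with fat-pad lines, -0.611 to 0.813).

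Between sites, 0 calls became 21 with DESeq2, 77 in limma, 78 with the run as a covariate, 1 in run A, 3 with origin as a covariate, 7 in YEJH lines and 0 to 1 with 1 line left out, and the pathway count became 1 in each limma fit. The technical repeat number as a replicate block, which shares only a number, gave 6595 calls for origin (3 chosen and 35 pathway genes), 2567 for derived against parental lines and 70 between sites. The YEJH line number as a replicate block gave 0 between sites. The cause of these shifts was not tested. *Rnf43* in the parental lines rests on 3 to 7 reads in each library.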
